A study of Mus musculus with 6 samples.

Results

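The lysosome genes were 129 of the 55416 genes in the deposited table, chosen from its annotation to the KEGG pathway lysosome (mmu04142). They were followed in cultured mouse satellite cells (SCs), the stem cells of skeletal muscle, with and without lactoferrin (*Ltf*), an iron-binding glycoprotein of secretions. The wild type (WT) and *Ltf* knockout (*Ltf*-KO) groups each held 3 RNA-seq libraries. In the study's methods the knockout is systemic and was made in C57/BL6N zygotes with CRISPR-Cas9 guides in introns of *Ltf*, so the deletion is in every cell of the mouse and effects that arise outside SCs cannot be told apart from those within them. Both groups shared the whole procedure, that is isolation from hind leg muscle, sorting by surface markers and 4 days of growth on Matrigel with fetal bovine serum, chicken embryo extract and basic fibroblast growth factor. The labels number the libraries but do not tie them to separate mice or cultures, so the p-values below measure the spread between these samples, which may be technical.

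The lysosome is the acidic compartment in which cells break down proteins, glycans, lipids and nucleic acids taken up from outside or delivered by autophagy. Its soluble hydrolases are tagged with mannose 6-phosphate in the Golgi and sorted by receptors, adaptor complexes and clathrin, a membrane-spanning proton pump acidifies the lumen, and heavily glycosylated proteins such as the LAMPs line the membrane. Many of its genes carry a short promoter element, CLEAR, to which TFEB and its relatives TFE3 and MITF bind, and in muscle the system takes part in fibre remodelling and in several storage diseases.

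Values are TPM (transcript abundances scaled to a common total), which divide reads by transcript length, so levels can be compared between genes. The 6 columns summed to between 993650 and 994356 TPM and listed 12828 to 12951 genes at 1 TPM or more, and because TPM keeps no depth, it is not known how many reads a value rests on. Pairs of libraries correlated as well across genotypes (Pearson's r over the tested genes 0.972 to 0.977) as within them (0.973 to 0.978). *Ltf* itself was listed at 0.12 TPM or less in every library of both genotypes, so it does not check the labels. Myogenic markers were high in all libraries, with *Myod1*, the myogenic master regulator, at 816, 748 and 771 TPM in WT and 775, 812 and 753 TPM in *Ltf*-KO SCs. *Pax7*, which marks SCs, was listed at 42.4, 41.5 and 39.1 TPM in WT and 39.0, 43.3 and 36.6 TPM in *Ltf*-KO SCs. In bulk RNA of this kind, fewer cells of a type and less RNA per cell cannot be told apart.

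The lysosome genes made up 0.866% to 0.937% of all TPM. The plot of levels by role shows how widely they differed. Of the 129 genes, 18 averaged 100 TPM or more over the 6 libraries, 63 lay between 10 and 100 TPM, 26 between 1 and 10 TPM and 22 below 1 TPM. The 107 genes that averaged 1 TPM or more entered the test between genotypes. The members just inside this limit were *Sgsh*, *Ctso* and *Gm2a* at means of 1.84, 2.06 and 2.16 TPM, and those just outside it were *Arsg*, *Abcb9* and *Slc11a1* at 0.973, 0.872 and 0.775 TPM.

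**Figure D1:**
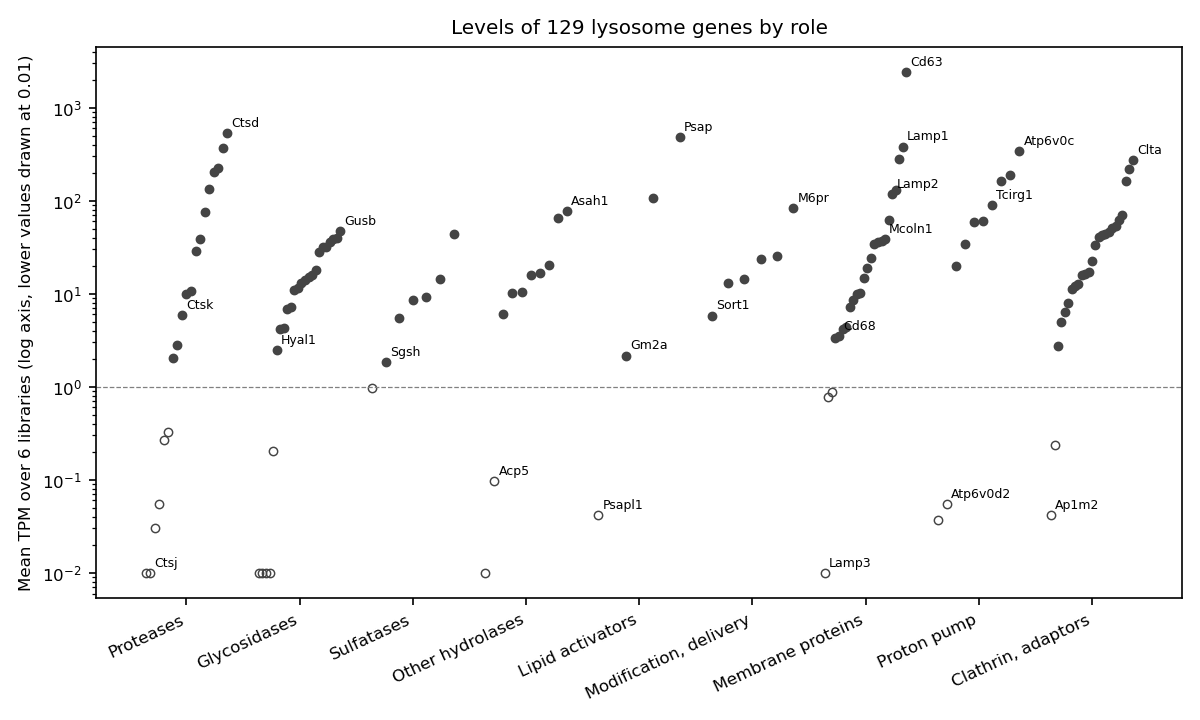
Mean TPM over the 6 libraries (log axis) of the 129 lysosome genes, ordered by level within each role; filled points were tested, open points lie under the dashed line at 1 TPM, and values under 0.01 TPM are drawn at 0.01. *Cd63* stood alone at the top with a mean of 2427 TPM, followed by *Ctsd* at 531 TPM and *Psap* at 484 TPM.

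Short stretches of promoter are shown here because they hold the element through which lysosome genes are known to be controlled together. RefSeq promoters on GRCm38.p6, from 250 bases before to 50 bases after each start site, were at hand for 103 of the 129 genes. The core of the CLEAR element, TCACGTGA, lay in a promoter of 9 of these 103 genes (8.74%) against 304 of all 27025 genes with a promoter (1.12%), and by promoter in 10 of 121 (8.26%) against 320 of 32851 (0.974%). The shorter E-box CACGTG, which lies inside that core, was found in 23 of the 103 genes (22.3%) against 2187 of 27025 (8.09%). Both words read the same on both strands. The genes with the full core were *Atp6v0d1*, *Cd164*, *Cln3*, *Ctsa*, *Ctsd*, *Gla*, *Gnptg*, *Mcoln1* and *Sumf1*, that is a pump subunit, membrane proteins, hydrolases and enzymes that modify hydrolases. Sequences are given 5′ to 3′ on the strand of the gene, with the core in capitals in the first 5 and the E-boxes in capitals in *Lamp1*. The window of *Mcoln1* also holds an E-box outside the core, left in lower case, at -71. The last, *Lamp1*, was the member promoter with the most E-boxes (4).
Ctsd (chr7:142387893-142387952, minus strand): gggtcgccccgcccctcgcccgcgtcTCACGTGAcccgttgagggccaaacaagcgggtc
Gla (chrX:134601167-134601255, minus strand): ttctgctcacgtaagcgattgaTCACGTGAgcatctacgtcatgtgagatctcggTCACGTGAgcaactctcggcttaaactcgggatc
Cd164 (chr10:41519386-41519445, plus strand): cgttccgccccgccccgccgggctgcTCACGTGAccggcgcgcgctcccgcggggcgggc
Mcoln1 (chr8:3500447-3500506, plus strand): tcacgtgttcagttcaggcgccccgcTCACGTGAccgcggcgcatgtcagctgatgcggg
Sumf1 (chr6:108185584-108185621, minus strand): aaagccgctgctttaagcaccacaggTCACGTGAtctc
Lamp1 (chr8:13159086-13159160, plus strand): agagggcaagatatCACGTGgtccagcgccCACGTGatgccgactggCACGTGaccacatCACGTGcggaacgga

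Counted back from the start site, with the base just before it as -1, the core began at -99 in *Ctsd*, -88 in *Cd164*, -46 in *Mcoln1* and -12 in *Sumf1*. The *Gla* promoter held the core at -228 and again at -195, and the E-boxes of *Lamp1* began at -61, -45, -28 and -15. The 9 genes with the core had a median level of 39.1 TPM, against 16.2 TPM for the 76 tested members whose promoters lacked it. A match is only a run of letters, and binding was not measured.

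Among the hydrolases, the cathepsins were the most abundant. *Ctsd* (ENSMUSG00000007891), the main aspartic protease of the lysosome, was listed at 509, 508 and 553 TPM in WT and 536, 577 and 505 TPM in *Ltf*-KO SCs. *Ctsl*, a cysteine protease, was listed at 367, 343 and 393 TPM in WT and 394, 398 and 338 TPM in *Ltf*-KO SCs, and *Ctsb*, another cysteine protease, at 220.1, 221 and 240.2 TPM in WT and 229, 233 and 212 TPM in *Ltf*-KO SCs. In all 3 the libraries of the genotypes overlapped. *Ctsa*, the carboxypeptidase that also shields β-galactosidase and neuraminidase, had a mean of 203 TPM, and *Ctsz* one of 135 TPM. Of the 19 proteases, 13 were tested, and together they summed to 1629 ± 88.8 TPM in WT and 1656 ± 120.2 TPM in *Ltf*-KO SCs (SD, n = 3 each), a ratio of 1.02.

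The glycosidases, which trim sugars from glycoproteins, glycolipids and glycosaminoglycans, gave a lower sum. *Gusb* (β-glucuronidase) was highest, at 45.2, 43.3 and 50.1 TPM in WT and 49.4, 54.3 and 43.8 TPM in *Ltf*-KO SCs. *Hyal2*, a hyaluronidase anchored at the cell surface, followed at a mean of 39.98 TPM. *Gaa*, the acid α-glucosidase whose loss causes Pompe disease of muscle, had a mean of 38.4 TPM. The hexosaminidase α chain *Hexa* was listed at 27.6, 32.0 and 34.1 TPM in WT and 33.9, 33.8 and 27.8 TPM in *Ltf*-KO SCs. In both *Gusb* and *Hexa* the libraries of the genotypes overlapped. The β-galactosidase *Glb1* had a mean of 28.4 TPM. Summed over the family, glycosidases reached 374 ± 23.0 TPM in WT and 381 ± 23.7 TPM in *Ltf*-KO SCs (SD, n = 3 each).

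Sulfatases, which remove sulfate from glycosaminoglycans and sulfatides, summed to 83.5 ± 2.99 TPM in WT and 85.3 ± 6.63 TPM in *Ltf*-KO SCs (SD, n = 3 each). Among them *Arsb* and *Ids* had means of 14.5 and 9.37 TPM. Among the hydrolases of lipids, nucleic acids and phosphate esters, the acid ceramidase *Asah1* was highest, at 71.8, 74.0 and 86.4 TPM in WT and 77.8, 75.6 and 75.7 TPM in *Ltf*-KO SCs. The palmitoyl-protein thioesterases *Ppt1* and *Ppt2* had means of 66.0 and 20.3 TPM. *Psap*, the precursor of the saposins that present sphingolipids to their hydrolases, was the third most abundant lysosome gene and was listed at 468, 465 and 521 TPM in WT and 481, 518 and 452 TPM in *Ltf*-KO SCs. The cholesterol carrier *Npc2* was listed at 103, 108 and 115 TPM in WT and 111, 113 and 101 TPM in *Ltf*-KO SCs. By contrast *Gm2a*, the activator that presents ganglioside GM2 to hexosaminidase, was listed at only 1.89, 1.74 and 2.57 TPM in WT and 1.99, 2.66 and 2.12 TPM in *Ltf*-KO SCs.

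Of the genes that modify and deliver the enzymes, *M6pr*, the small cation-dependent mannose 6-phosphate receptor, was among the steadiest of all members. It was listed at 82.0, 84.7 and 84.9 TPM in WT and 83.9, 84.4 and 82.8 TPM in *Ltf*-KO SCs, a coefficient of variation within genotypes of 1.53%. *Gnptg*, a subunit of the enzyme that makes the mannose 6-phosphate tag, had a mean of 25.3 TPM, and *Sumf1*, which activates every sulfatase, one of 23.5 TPM.

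Membrane proteins gave the largest sum, 3671 ± 147 TPM in WT and 3642 ± 74.4 TPM in *Ltf*-KO SCs (SD, n = 3 each). Most of it was *Cd63* (ENSMUSG00000025351), a tetraspanin of late endosomes, lysosomes and exosomes, listed at 2340.3, 2477 and 2570.5 TPM in WT and 2417, 2409 and 2347 TPM in *Ltf*-KO SCs. It ranked 57 among all genes by mean level. *Lamp1* (ENSMUSG00000031447) was listed at 373, 369.8 and 394 TPM in WT and 387, 398 and 375 TPM in *Ltf*-KO SCs, and *Lamp2*, whose loss causes Danon disease of heart and muscle, at 106, 113 and 123 TPM in WT and 124, 122 and 115 TPM in *Ltf*-KO SCs. Both LAMPs were thus clearly expressed, while the third, *Lamp3*, had a mean of 0.0033 TPM. *Laptm4a* was the steadiest tested member, with a coefficient of variation within genotypes of 1.11%. The lysosomal calcium channel *Mcoln1* was listed at 35.5, 36.6 and 40.6 TPM in WT and 46.1, 39.4 and 36.1 TPM in *Ltf*-KO SCs, with 1 *Ltf*-KO library above the rest. The cholesterol exporter *Npc1* had a mean of 24.5 TPM.

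For the proton pump, the transcripts of alternative subunits differed in level, as the plot of paralog shares shows. Which subunit proteins the pump held was not measured. *Atp6v0c*, the ring subunit that carries protons, was the most abundant at 343, 337 and 359 TPM in WT and 339, 366 and 324 TPM in *Ltf*-KO SCs. *Atp6ap1*, an accessory subunit, and *Atp6v0b* had means of 189.5 and 165 TPM. Of the summed TPM of the 4 genes for the a subunit, *Tcirg1* (a3), known from the osteoclast pump, held 59.9% to 65.1% in the 6 libraries, *Atp6v0a2* 22.2% to 24.6%, *Atp6v0a1* 12.3% to 15.5% and *Atp6v0a4* at most 0.057%. *Atp6v0d1* held at least 99.8% of the d subunit and *Atp6v0d2* at most 0.244%. The pathway subunits summed to 962 ± 41.3 TPM in WT and 966 ± 54.0 TPM in *Ltf*-KO SCs (SD, n = 3 each).

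**Figure D2:**
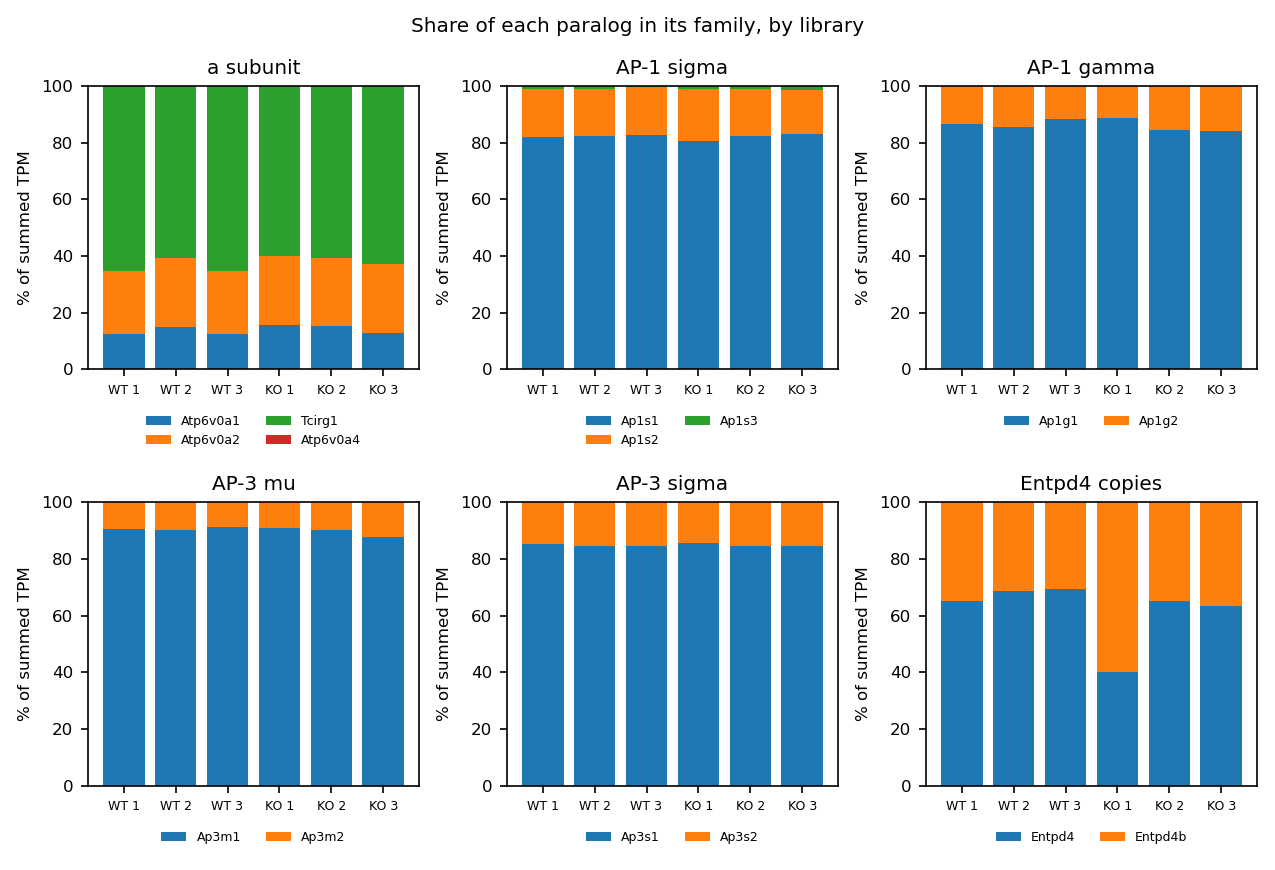
Stacked bars give the share (%) of each paralog in the summed TPM of its family in each WT and *Ltf*-KO library. The share of *Ap1s1* ran from 80.6% to 83.1%, and that of the minor paralog *Ap1s3* from 0.485% to 1.5%. Among the *Entpd4* copies KO 1 stood apart, with *Entpd4* at 40.0% against 63.5% to 69.4% elsewhere.

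The clathrin light chain *Clta* was the most abundant gene of the transport machinery, at 284, 259 and 276 TPM in WT and 275, 292 and 270.1 TPM in *Ltf*-KO SCs, ahead of the heavy chain *Cltc* with a mean of 164 TPM. The AP-1 complex sorts hydrolases at the trans-Golgi. Of the summed TPM for each of its subunits, *Ap1m1* made up at least 99.8% of the μ subunit. *Ap1g1* made up 84.1% to 88.8% of the γ subunit and *Ap1s1* 80.6% to 83.1% of the σ subunit. *Ap1s2* made up 15.4% to 18.4% and *Ap1s3* 0.485% to 1.5% of the σ subunit. Within AP-3, which carries membrane proteins to lysosomes, *Ap3b1* held at least 98.8%, *Ap3m1* 87.8% to 91.2% and *Ap3s1* 84.5% to 85.6% of their subunits. A paralog known from epithelia, *Ap1m2*, and one known from neurons, *Ap3b2*, had means of 0.0417 and 0.237 TPM. Not all minor paralogs were this low, since the AP-3 paralog *Ap3m2* had a mean of 5.04 TPM.

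Several nearly silent members are known from other tissues. *Ctsj*, *Ctsm*, *Hyal4*, *Hyal5*, *Hyal6* and *Spam1*, among them placental cathepsins and hyaluronidases of testis and sperm, were listed at 0 in all 6 libraries. Another 16 genes were above 0 somewhere but below a mean of 1 TPM. They included *Acp5*, the tartrate-resistant phosphatase of osteoclasts, at 0.05, 0.05 and 0.05 TPM in WT and 0.10, 0.17 and 0.16 TPM in *Ltf*-KO SCs, and the leukocyte protease *Ctsg* at a mean of 0.055 TPM.

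To learn whether the lysosome genes responded to loss of *Ltf*, *Ltf*-KO SCs were compared with WT SCs. Most of them differed little. The tested members differed by a median of 0.017 on the log2(TPM + 1) scale (*Ltf*-KO minus WT), against 0.011 over all 12956 genes tested, with 69 members (64.5%) above 0 and 38 below, against 55.7% of all genes above 0. On this scale the differences of low genes come out too small. Single differences ran from -0.23 to 0.73. By limma with Benjamini-Hochberg adjustment, 0 of the 107 members had an adjusted p under 0.05 (the smallest was 0.999), as against 0% of all tested genes. At an unadjusted p under 0.05 there was 1 member, *Ctsk*, which was higher in *Ltf*-KO. Over all tested genes 3.78% passed this threshold, 2.01% higher and 1.78% lower in *Ltf*-KO.

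The size of the change that these libraries leave possible was small for most members. The 95% interval of the difference lay within a 1.5-fold change in either direction on this log2(TPM + 1) scale for 98 of the 107 genes and within a 1.2-fold change for 58. The plot of differences by role shows this for each gene. For *Cd63* the difference was -0.04 (95% interval -0.13 to 0.05), for *Lamp1* 0.03 (95% interval -0.06 to 0.12), for *Lamp2* 0.08 (95% interval -0.07 to 0.23) and for *Ctsd* 0.04 (95% interval -0.10 to 0.18). The 9 genes whose intervals reached past a 1.5-fold change were *Ctsw*, *Ctsk*, *Gga3*, *Ap1s3*, *Fuca1*, *Laptm5*, *Cln3*, *Entpd4* and *Entpd4b*.

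**Figure D3:**
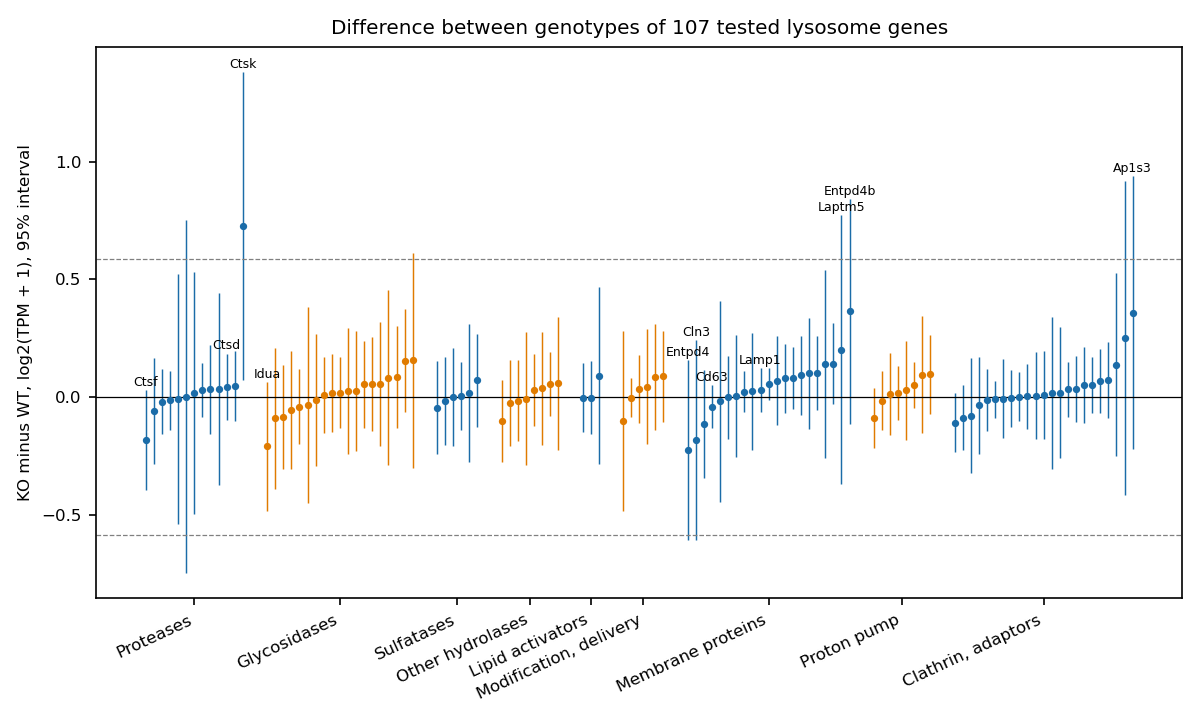
Difference between *Ltf*-KO and WT on the log2(TPM + 1) scale, with its 95% interval from limma (3 libraries per genotype), for the 107 tested lysosome genes by role; dashed lines mark a 1.5-fold change. *Ctsk*, at 0.73, was the only gene whose interval left out 0.

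By role, the counts above and below 0 were 8 and 5 for proteases, 12 and 7 for glycosidases, 4 and 2 for sulfatases, 4 and 4 for the other hydrolases, 1 and 2 for lipid activators, 4 and 2 for modification and delivery, 15 and 6 for membrane proteins, 6 and 2 for pump subunits and 15 and 8 for clathrin and adaptors. Apart from *Ctsk*, no member of any role had an unadjusted p under 0.05. The medians of the roles ran from -0.0028 for lipid activators to 0.055 for membrane proteins. The ratio of summed TPM (*Ltf*-KO over WT) ran from 0.992 for membrane proteins to 1.02 for proteases, glycosidases and sulfatases. The sum of all hydrolases was 2309 ± 119 TPM in WT and 2345 ± 153 TPM in *Ltf*-KO SCs (SD, n = 3 each). Between the highest and the lowest library it differed 1.14-fold. The 9 tested members with the CLEAR core differed by a median of 0.046 (from -0.18 to 0.10) and those whose promoters lacked it by 0.017.

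*Ctsk* (ENSMUSG00000028111), the collagen-degrading cathepsin best known from osteoclasts and also made by fibroblasts, had the largest difference. It was listed at 3.37, 3.23 and 6.00 TPM in WT and 8.08, 9.65 and 5.07 TPM in *Ltf*-KO SCs. WT 3 was above KO 3, so the genotypes overlapped. The means were 4.20 ± 1.56 TPM in WT and 7.60 ± 2.33 TPM in *Ltf*-KO SCs (SD, n = 3 each), a difference of 0.73 (SE 0.27) with an unadjusted limma p of 0.0343 and an adjusted p of 0.999. This unadjusted p rose to between 0.104 and 0.117 when WT 1, WT 2, KO 1 or KO 2 was left out and fell to 0.0111 without WT 3 and 0.0113 without KO 3.

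Markers of fibroblasts varied beside it. *Dcn*, a proteoglycan of fibroblasts, was listed at 2.04, 2.89 and 5.24 TPM in WT and 5.71, 6.83 and 2.82 TPM in *Ltf*-KO SCs, and *Col1a1*, a chain of type I collagen, at 3.73, 4.98 and 5.91 TPM in WT and 6.91, 9.32 and 5.05 TPM in *Ltf*-KO SCs. Both were highest in KO 2 and then in KO 1 and WT 3, as *Ctsk* was. Of the 7 fibroblast markers, 4 had this order, the others being *Pdgfra* and *Lum*, and 3 did not. *Col3a1*, the most abundant of them, was listed at 94.6, 96.6 and 88.0 TPM in WT and 118, 93.3 and 89.8 TPM in *Ltf*-KO SCs, and it was highest in KO 1, as was *Thy1*, while *Ly6a* was highest in KO 3. All 7 fibroblast markers looked at were above 0, 6 were tested, all 6 lay above 0 with a median difference of 0.25, and 0 had an unadjusted p under 0.05 by limma. Their summed level ran from 104.6 to 109.8 TPM in WT and from 104.3 to 137.7 TPM in *Ltf*-KO libraries. Osteoclast markers summed to 0.12 to 0.62 TPM in WT and 0.12 to 0.51 TPM in *Ltf*-KO libraries. The 5 endothelial markers summed to 7.36, 5.68 and 14.2 TPM in WT and 11.5, 13.3 and 5.68 TPM in *Ltf*-KO libraries. Their sum, like that of all hydrolases, was thus also highest in WT 3, KO 2 and KO 1, although 1 of them, *Kdr*, was lowest in KO 1. High values in these libraries were not particular to fibroblast markers. The gate in the study's methods leaves out cells with Sca1, a marker of fibro-adipogenic cells, and the part of other cells in the level of *Ctsk* was not tested.

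**Figure D4:**
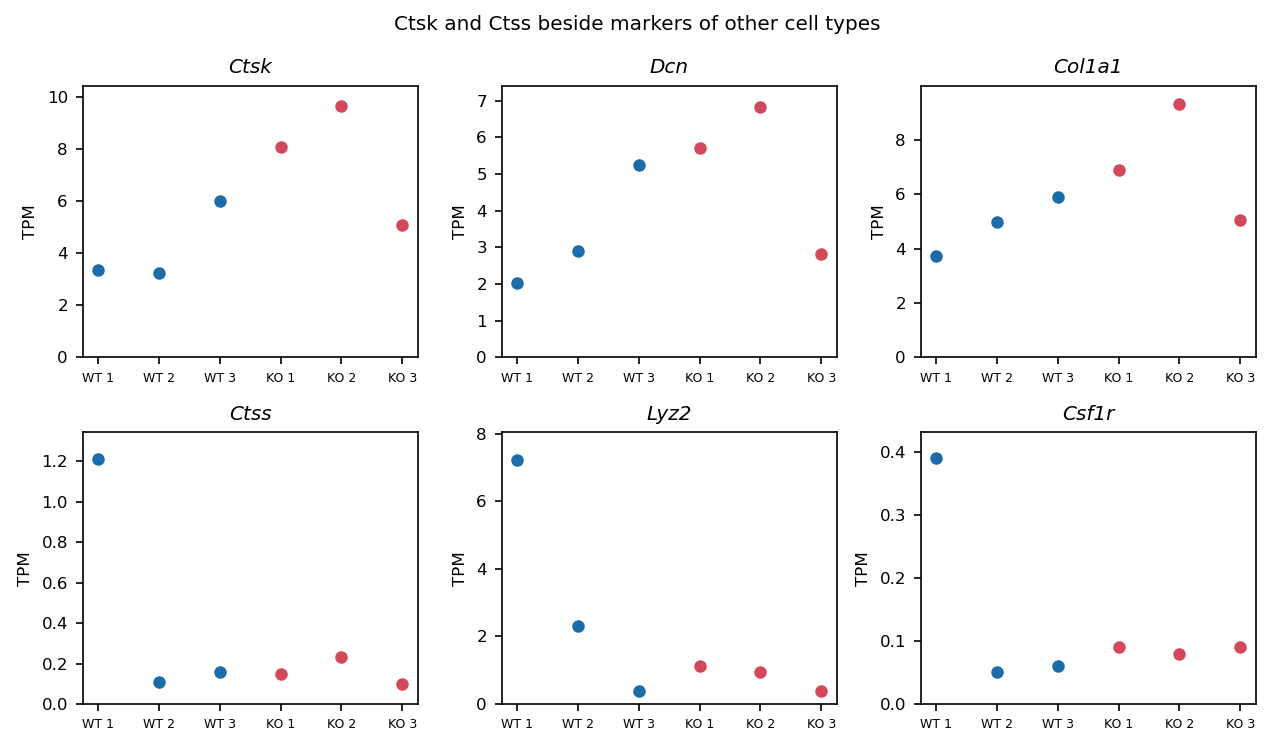
Each point is the TPM of 1 library (blue, WT; red, *Ltf*-KO) for *Ctsk* beside 2 of 7 fibroblast markers, *Dcn* and *Col1a1*, and for *Ctss* beside 2 of 9 macrophage markers, *Lyz2* and *Csf1r*. *Ctsk*, *Dcn* and *Col1a1* were highest in KO 2, and *Ctss*, *Lyz2* and *Csf1r* were highest in WT 1.

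Among the members known from leukocytes, *Ctss*, the cysteine protease of antigen-presenting cells, was low. It was listed at 1.21, 0.11 and 0.16 TPM in WT and 0.15, 0.23 and 0.10 TPM in *Ltf*-KO SCs, so that WT 1 stood apart. *Ctss* was named after its values were seen, as were *Ctsw* and *Slc11a1* below. The macrophage markers *Lyz2*, at 7.22, 2.31 and 0.38 TPM in WT and 1.11, 0.95 and 0.38 TPM in *Ltf*-KO SCs, and *Csf1r*, at 0.39, 0.05 and 0.06 TPM in WT and 0.09, 0.08 and 0.09 TPM in *Ltf*-KO SCs, were also highest in WT 1. So were *Adgre1*, *Itgam*, *Ptprc* and *Tyrobp*, that is 6 of the 9 macrophage markers. *Cd14*, at 6.57, 7.67 and 7.69 TPM in WT and 7.38, 8.18 and 6.27 TPM in *Ltf*-KO SCs, and *Fcer1g* were highest in KO 2 instead, and *Mrc1* in KO 3. The 9 markers summed to 8.86 to 16.3 TPM in WT and 7.03 to 10.4 TPM in *Ltf*-KO libraries, none was at 0 in all libraries, and 2 were tested. The study's methods name CD11b, a macrophage marker, among those the gate leaves out, but list no CD11b antibody. They do list stains for the leukocyte marker CD45 and for CD31, which the gate as written does not name. The part of macrophages in these values was not tested.

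Other members known from leukocytes had another order. *Laptm5*, a lysosomal protein of blood cells, was listed at 9.33, 7.60 and 10.5 TPM in WT and 9.96, 15.4 and 7.64 TPM in *Ltf*-KO SCs, and *Ctsw*, known from cytotoxic lymphocytes, at 10.9, 7.30 and 10.7 TPM in WT and 8.77, 15.6 and 6.17 TPM in *Ltf*-KO SCs. Both were highest in KO 2 and their genotypes overlapped. The iron and manganese exporter of phagosomes, *Slc11a1*, was highest in KO 1 and WT 1, at 1.31, 0.43 and 0.13 TPM in WT and 1.71, 0.73 and 0.34 TPM in *Ltf*-KO SCs. *Cd68*, a macrophage LAMP relative, was listed at 3.56, 3.58 and 3.98 TPM in WT and 3.41, 3.52 and 3.12 TPM in *Ltf*-KO SCs, a difference of -0.11 (95% interval -0.34 to 0.12).

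A few members had no overlap between genotypes. *Laptm4a*, *Entpd4b* and *Atp6v0a2* were higher in all *Ltf*-KO than in all WT libraries (3 of 107, 2.8%, against 4.73% of all tested genes), and *Ap1b1*, *Cd68*, *Ap3m1* and *Ctsf* were lower in all of them (4 of 107, 3.74%, against 3.73%). Both shares were at or below the background. *Laptm4a*, a membrane protein of late endosomes, was listed at 272, 278 and 271 TPM in WT and 287, 283 and 284 TPM in *Ltf*-KO SCs, a difference of 0.05 (95% interval -0.01 to 0.12) with an unadjusted limma p of 0.0943. The AP-3 subunit *Ap3m1* was listed at 45.9, 48.9 and 49.6 TPM in WT and 45.7, 42.4 and 45.5 TPM in *Ltf*-KO SCs, a difference of -0.11 (95% interval -0.24 to 0.02). *Ctsf*, a cathepsin highly expressed in muscle, was listed at 12.8, 11.1 and 10.5 TPM in WT and 9.27, 10.2 and 10.3 TPM in *Ltf*-KO SCs, a difference of -0.18 (95% interval -0.40 to 0.03). Of the genes without overlap, *Ctsf* and *Ap1b1* were named after their values were seen.

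The largest opposite differences came from a pair of copies. *Entpd4*, a nucleoside diphosphatase of Golgi and lysosome, was listed at 7.26, 7.47 and 8.60 TPM in WT and 4.87, 7.57 and 7.35 TPM in *Ltf*-KO SCs, and *Entpd4b* at 3.89, 3.40 and 3.80 TPM in WT and 7.30, 4.07 and 4.23 TPM in *Ltf*-KO SCs. Their longest coding transcripts share all 3560 stretches of 30 bases, so the counting could assign a read to either copy. The sum of both was 11.2, 10.9 and 12.4 TPM in WT and 12.2, 11.6 and 11.6 TPM in *Ltf*-KO libraries. The sum in KO 1 thus lay within the range of the other libraries, while the split between the copies did not. Without KO 1 the difference of *Entpd4* moved from -0.23 to -0.050 and that of *Entpd4b* from 0.36 to 0.13. *Idua*, the α-L-iduronidase, came next among the genes lower in *Ltf*-KO, at 4.52, 4.31 and 4.99 TPM in WT and 3.58, 4.51 and 3.50 TPM in *Ltf*-KO SCs, a difference of -0.21 (95% interval -0.48 to 0.06).

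The sum of the hydrolases varied between libraries of the same genotype. The plot of roles by library shows it at 2259.7, 2222 and 2444 TPM in WT and 2363, 2489 and 2184 TPM in *Ltf*-KO SCs. WT 3 and KO 2 were the highest and KO 3 the lowest. Of the 46 tested hydrolases, 17 had their highest value in KO 2 and 13 in WT 3, against 1 in KO 3. Over all tested genes the highest value fell in KO 2 for 2765, in WT 3 for 2060 and in KO 3 for 2204 of 12956. The median deviation of the 46 hydrolases from their mean over libraries was 0.085 in KO 2, 0.074 in WT 3 and -0.084 in KO 3 on the log2 scale, against 0.0086, -0.0021 and -0.0060 for all tested genes. Within the hydrolases, those of lipids, nucleic acids and phosphate esters varied less, with medians of 0.028, -0.0030 and -0.025 in the same libraries. The order was not confined to hydrolases, since pump subunits had medians of 0.089, 0.058 and -0.076 and lipid activators 0.099, 0.11 and -0.096. The sum of the clathrin and adaptor genes differed 1.04-fold between the highest and the lowest library.

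**Figure D5:**
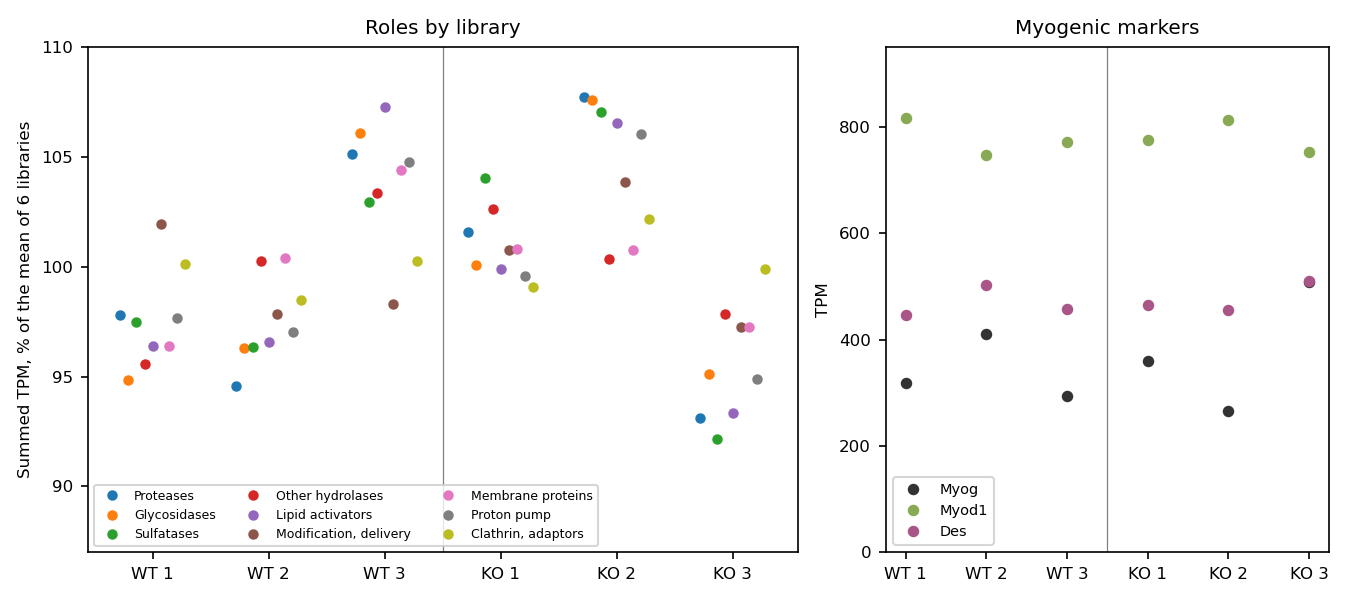
Left, summed TPM of each role in each library as a percentage of its mean over the 6 libraries; right, TPM of the myogenic genes *Myog*, *Myod1* and *Des* in the same libraries. Proteases, glycosidases and sulfatases lay above their mean in WT 3 and KO 2 and below it in KO 3, where *Myog* was 508 TPM against 293 in WT 3 and 266 in KO 2.

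*Myog*, the transcription factor that marks myoblasts committed to fusion, was ordered nearly the other way. It was listed at 319, 410.3 and 293 TPM in WT and 360.4, 266 and 508 TPM in *Ltf*-KO SCs, lowest in KO 2 and WT 3 and highest in KO 3. *Des*, a muscle intermediate filament, varied less, at 446, 503 and 457 TPM in WT and 465, 456 and 511 TPM in *Ltf*-KO SCs. The 8 myogenic markers looked at did not share this order. *Itga7* and *Cdh15* were also highest in KO 3, at 416 and 94.6 TPM. *Myf5*, *Pax7* and *Chrna1* were instead lowest in KO 3, at 109, 36.6 and 508 TPM, and *Myod1* was highest in WT 1. A part of differentiation in the level of the hydrolases was not tested.

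Within each genotype the lysosome genes varied slightly more than other genes of like level. The median coefficient of variation was 17.4% for the 26 members from 1 to 10 TPM against 15.3% for all 4884 such genes, 7.27% against 6.25% from 10 to 100 TPM (63 and 6681 genes) and 4.96% against 3.79% at 100 TPM or more (18 and 1391 genes). Among the most variable was *Gga3*, which encodes a sorting adaptor, at 12.5, 20.4 and 13.5 TPM in WT and 14.7, 27.4 and 14.9 TPM in *Ltf*-KO SCs. WT 2 and KO 2 stood above the others. Exons of *Gga3* overlap those of *Mrps7* on the other strand in GENCODE M21, and whether strand was used in counting is not given in the sources used here. Exons of 44 of the 129 genes overlap another gene, 25 of them a protein-coding one, such as *Hyal1* with *Hyal3* and *Glb1* with *Tmppe*.

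Genes that work with the lysosome but lie outside the annotation also showed few differences. Of 12 genes for the V1 sector of the proton pump, the part that hydrolyses ATP, 8 were tested, with 4 above and 4 below 0 and a median of 0.0019. The transcription factor *Tfe3* was the most abundant of its family, at 21.9, 20.3 and 22.7 TPM in WT and 22.1, 23.0 and 20.3 TPM in *Ltf*-KO SCs. *Tfeb* was listed at 1.78, 2.66 and 4.64 TPM in WT and 3.28, 2.66 and 2.89 TPM in *Ltf*-KO SCs and *Mitf* at 2.66, 3.02 and 3.06 TPM in WT and 2.56, 2.98 and 2.30 TPM in *Ltf*-KO SCs, while *Tfec* was at 0 in 5 of the 6 libraries and at 0.14 TPM in KO 2. The 3 tested factors had 2 differences above and 1 below 0. All 8 autophagy genes known as TFEB targets were tested, 2 above and 6 below 0, with a median of -0.020. Of these 3 lists, 0 genes had an unadjusted p under 0.05 by limma.

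Of the 13 genes that dock the growth regulator mTORC1 on the lysosome, 7 lay above and 6 below 0, with a median of 0.0097. *Rragb*, one of the Rag GTPases, was the 1 gene with an unadjusted limma p under 0.05, a threshold that 3.78% of all tested genes passed. It was named after its values were seen. *Rragb* was listed at 6.81, 5.86 and 6.70 TPM in WT and 7.27, 8.59 and 8.64 TPM in *Ltf*-KO SCs. All *Ltf*-KO libraries lay above all WT libraries, as in 4.73% of all tested genes. The difference was 0.30 (95% interval 0.07 to 0.53), with a limma p of 0.0186 before and 0.999 after adjustment.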

How the data were processed

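Sorted SCs of WT and *Ltf*-KO mice (3 libraries each, grown for 4 days) were assigned to genotype and number by their labels. The authors deposited TPM values per gene with KEGG pathways, normalized by the sequencing provider. The submitters' processing notes name the build GRCm39, while the aligner, counter and annotation are not given in the sources used here. The unit was taken from the column sums. The members and lists were chosen with earlier results of these data known, and roles of 7 members were added from their known function after the table was read. Values of some genes of the pathway are not reported here.

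limma 3.58.1 (R 4.3.3; lmFit, eBayes with trend, two-sided) was run on log2(TPM + 1), over 12956 genes (23.4%) that averaged 1 TPM or more, with Benjamini-Hochberg adjustment over all of them and a threshold of 0.05. The fit was tested on simulated data. Named genes were, by rule, those under the p threshold, the 3 most abundant of each role, the 2 largest differences in each direction, paralogs of the pump and adaptors, members at 0 in every library, the MiT/TFE factors and a fixed list of textbook genes. Others were named after their values were seen. Alternatives were other scalings, pseudocounts, filters and variance models, the replicate number as a block, and each library left out. Count tests were not run, since TPM keeps no counts. Promoters and GENCODE M21 exons were read on GRCm38, and coordinates are given only on that build. Protein sequences were not used here.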

Additional observations from a re-analysis of the deposited data

How the results depend on the processing

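By limma, 0 lysosome genes had an adjusted p under 0.05 in any alternative, and their smallest adjusted p was 0.946. The count higher in *Ltf*-KO at an unadjusted p under 0.05, 1 with the settings chosen, was 2 with no filter (*Acp5* and *Ctsk*), 0 at a mean of at least 10 TPM, where *Ctsk* was filtered out, and 0 to 4 with a library left out. It was 4 without KO 3 (*Ctsk* among them), 3 without WT 3 (*Ctsk*, *Abca2* and *Lamp2*), 1 without KO 1 (*Ap1g2*) and 0 without WT 1, WT 2 or KO 2. The count lower, 0 with those settings, was 0 to 2 with a library left out, with 2 without KO 2 (*Cln3* and *Idua*) and 1 each without WT 1 (*Ap3m1*), WT 2 (*Tcirg1*) and WT 3 (*Ctsf*). The cause was not tested. For these alternatives the share over all tested genes is not given, so the counts cannot be read as particular to the lysosome genes. The difference of *Ctsk* stayed above 0 in all alternatives that gave it, from 0.55 to 0.96, with adjusted p from 0.946 to 1. The median difference of the members was -0.0096 without KO 2 and 0.045 without KO 3. Summed TPM of the roles gave ratios from 0.965 to 1.07.

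Deviations of same-numbered libraries from the mean of their genotype correlated at r = -0.041, -0.058 and -0.088 for numbers 1, 2 and 3, over all tested genes. The labels give such libraries a shared number only, and whether they shared a preparation was not tested. In the limma fit with the replicate block, no member passed after adjustment (0 of 107). Before adjustment *Gga3* had a limma p of 0.0286 and *Ctsk* one of 0.0797.

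Of 779 alternative values for 61 genes, 689 kept their direction and side of the threshold, and 90 changed sign, in 34 genes whose reported difference was at most 0.25 in size. Median-of-ratios scaling turned *Ap3b1* -0.0041, *Ap3s2* -0.0087, *Cltc* -0.012, *Ctsw* -0.010, *Gaa* -0.0042, *Ids* -0.0077 and *Tfe3* -0.00038, quantile normalization *Ap3b1* -0.0046, *Ap3m2* -0.012, *Ap3s2* -0.021, *Ctsw* -0.022, *Gaa* -0.0094, *Hyal2* -0.0060, *Ids* -0.025, *M6pr* 0.0029, *Tfe3* -0.0040 and *Tfeb* -0.0044, and a pseudocount of 0.1 *Ctsw* -0.0053. With a library left out, the genes that changed sign ranged as follows, each from its lowest to its highest difference: *Ap1m1* -0.059 to 0.022, *Ap1s1* -0.023 to 0.0062, *Ap1s2* -0.076 to 0.048, *Ap3b1* -0.058 to 0.068, *Ap3m2* -0.12 to 0.085, *Ap3s1* -0.012 to 0.066, *Ap3s2* -0.026 to 0.026, *Arsb* -0.092 to 0.036, *Asah1* -0.066 to 0.065, *Atp6ap1* -0.026 to 0.056, *Atp6v0b* -0.041 to 0.11, *Atp6v0c* -0.064 to 0.026, *Clta* -0.0049 to 0.060, *Cltc* -0.022 to 0.036, *Ctsa* -0.0099 to 0.10, *Ctsb* -0.041 to 0.026, *Ctsd* -0.0067 to 0.090, *Ctsh* -0.23 to 0.16, *Ctsl* -0.017 to 0.11, *Ctsw* -0.33 to 0.28, *Gaa* -0.040 to 0.057, *Gga3* -0.030 to 0.46, *Glb1* -0.023 to 0.070, *Gnptg* -0.013 to 0.080, *Hexa* -0.057 to 0.12, *Hyal2* -0.043 to 0.081, *Ids* -0.019 to 0.023, *Laptm5* -0.050 to 0.41, *M6pr* -0.018 to 0.0058, *Npc2* -0.039 to 0.046, *Ppt1* -0.0035 to 0.084, *Psap* -0.053 to 0.050, *Tfe3* -0.031 to 0.059, *Tfeb* -0.21 to 0.30.

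Depth is unknown, so counting error could not be told from other spread at low TPM. Since 0 members were called by limma (1 at an unadjusted p under 0.05), 3 libraries per genotype leave undetected any difference that lies inside the intervals given.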

Other observations

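Other marker lists looked at beside the lysosome genes were low or shared with muscle cells. Markers of neutrophils, which store lactoferrin, summed to 0.95 to 3.35 TPM in WT and 1.01 to 3.43 TPM in *Ltf*-KO libraries, and those of endothelial cells to 5.68 to 14.2 TPM and 5.68 to 13.3 TPM. Markers of smooth muscle and pericytes, of which *Acta2* is also expressed by cultured myoblasts, summed to 409.8 to 494.8 TPM in WT and 452 to 594 TPM in *Ltf*-KO libraries. Over these 3 lists, 0 genes had an unadjusted p under 0.05 by limma, and 0 an adjusted one.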
